A study of Mus musculus with 13 samples.

Results

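The 10 genes described here control the G1 phase of the cell cycle: the D-type cyclins Ccnd1, Ccnd2 and Ccnd3, their kinases Cdk4 and Cdk6, the CIP/KIP inhibitors Cdkn1a, Cdkn1b and Cdkn1c, and the INK4 inhibitors Cdkn2b and Cdkn2c. They were chosen by gene symbol among the 35793 genes of the count table, and all 10 were found. RNA was sequenced from the hearts of C57BL/6JO1aHsd mice, aged 8 to 10 weeks at the start, in 13 libraries of 3 groups. Sham-operated mice had no antibody treatment (n = 3). The other mice had a permanent ligation of the left anterior descending coronary artery, which causes a myocardial infarction (MI), and received 10 mg/kg of a control IgG antibody (n = 5) or 10 mg/kg of FG-3149, an antibody against connective tissue growth factor (n = 5). All libraries carry the time label 1W+6W, which the labels do not spell out. The tissue was left ventricle from outside the ischaemic zone. Sham mice differed from both infarcted groups in surgery and in antibody, and these cannot be told apart. The labels do not say that replicates came from separate animals, so p-values measure the spread between these samples.

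D-type cyclins bind CDK4 or CDK6 and start the phosphorylation of the retinoblastoma protein, which frees E2F factors to switch on genes of DNA replication. INK4 inhibitors bind CDK4 and CDK6 alone, whereas CIP/KIP inhibitors bind cyclin-kinase complexes and block CDK2 most strongly. Adult cardiomyocytes have largely left the cell cycle, while fibroblasts, endothelial cells and leukocytes of the heart can still divide. In bulk tissue, fewer cells of a type and less RNA per cell cannot be told apart.

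Total estimated counts ranged from 10954920 to 17567238 per library. Marker genes of cell types differed between the groups. Summed fibroblast markers (14 genes) were at 2906 to 3094 CPM (counts scaled to library size) in sham, 4702 to 6788 in MI + IgG and 4336 to 4979 in MI + FG-3149. Against sham, 12 of the 14 rose and 1 fell in MI + IgG, and 11 rose and 1 fell in MI + FG-3149 (edgeR adjusted p under 0.05). Of all genes tested, 17.8% were higher and 15.9% lower in MI + IgG, and 15.6% and 13.9% in MI + FG-3149. Summed macrophage markers (13 of 14 genes tested) were at 359.6 to 370.3, 485.4 to 753.5 and 525.1 to 835.2 CPM. Summed cardiomyocyte markers (14 genes) were far higher in all libraries, at 108900 to 117700, 95090 to 103800 and 99620 to 108000 CPM. Of these 14, 1 rose and 5 fell in MI + IgG against sham, and 2 rose and 5 fell in MI + FG-3149. Their median log2 differences were -0.009 and 0.043, so the lower sum does not hold for most of these markers. The position of reads along transcripts also differed. Over 4350 genes with 1 transcript, at least 4 exons and at least 200 counts in every library, the median share of reads in the 5′ exon was 0.582 to 0.683% in sham, 0.709 to 1.19% in MI + IgG and 1.783 to 2.141% in MI + FG-3149, with no overlap between groups. The part of these differences in the results below was not tested. Values by exon are given for some genes and show only whether a call depends on the exons counted.

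Levels can be compared between genes only per length, as RPKM, reads scaled for transcript length and library size. In sham hearts Cdk4 was at 37.7 ± 3.48 RPKM, Ccnd2 at 31.6 ± 1.21, Ccnd3 at 30.4 ± 0.767 and Ccnd1 at 23.7 ± 2.80 (SD, n = 3). Ccnd2 and Ccnd3 did not differ beyond their spread. Cdkn1a, at 13.0 ± 1.96 RPKM, and Cdkn1b, at 11.7 ± 0.965, followed, and these were also within each other's spread. Cdkn1c was at 9.13 ± 0.596 RPKM, Cdkn2c at 7.63 ± 0.655, Cdk6 at 1.29 ± 0.108 and Cdkn2b at 0.199 ± 0.0843. In the infarcted groups the order of the top changed, with Ccnd2 first at 56.0 ± 7.52 RPKM in MI + IgG and 52.7 ± 4.10 in MI + FG-3149 (SD, n = 5), above Cdk4 at 41.1 ± 2.5 and 38.7 ± 1.28.

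**Figure D1:**
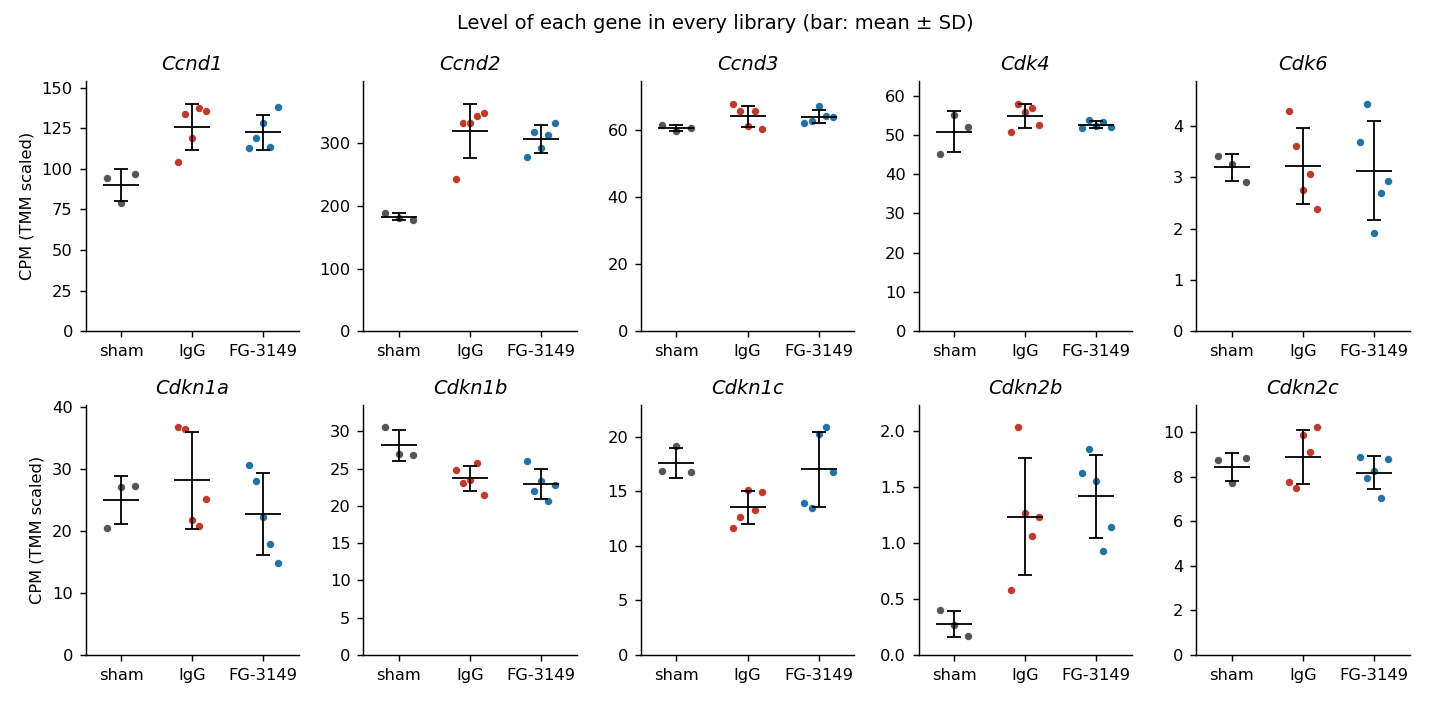
CPM of each of the 10 genes (y axes, one panel a gene) in every library of the 3 groups (x axis); points are libraries and bars the mean ± SD. Ccnd1, Ccnd2 and Cdkn2b of both infarcted groups lie above all 3 sham libraries, and Cdkn1a varies widely within the infarcted groups.

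In MI + IgG hearts 3 of the 10 genes rose against sham and 2 fell, by edgeR's quasi-likelihood test with Benjamini-Hochberg adjustment and a threshold of 0.05. Of all 13434 genes tested, 33.7% were called there, 17.8% higher and 15.9% lower. In MI + FG-3149 hearts 3 rose and 1 fell, with 29.5% of all genes called, 15.6% higher and 13.9% lower. Between MI + FG-3149 and MI + IgG no member was called by edgeR, DESeq2 or limma voom, against 1.07% of all genes by edgeR, 0.916% higher and 0.156% lower. By edgeR, 1849 of all genes (13.8%) had an unadjusted p under 0.05 there, and Cdkn1c was among them. The libraries of MI + IgG and sham did not overlap for 5 of the 10 genes and for 35.8% of all genes, and those of MI + FG-3149 and sham for 5 and 32.2%. The infarcted groups overlapped for all 10 genes, and 3.14% of all genes did not overlap there. All 10 genes passed the filter on low counts, but Cdkn2b did so only through the infarcted groups. Cdkn2b is counted among the 3 that rose and the 5 without overlap in each comparison with sham, and is no support for these counts. Without it, 2 genes, Ccnd1 and Ccnd2, rose in each.

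**Figure D2:**
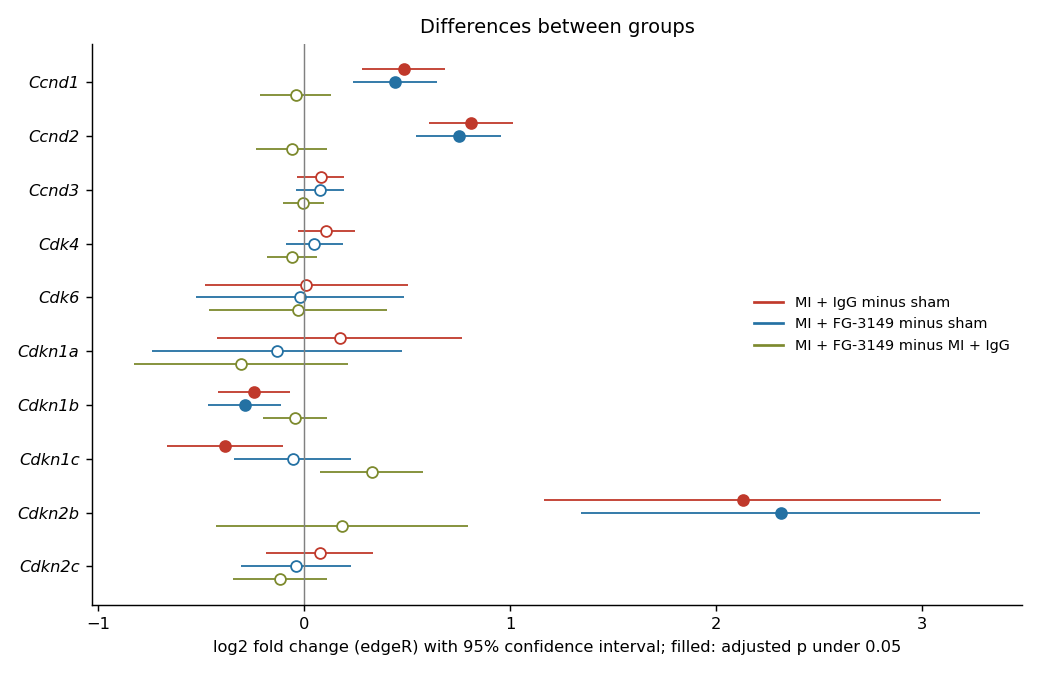
Log2 fold change by edgeR (x axis) of each gene (y axis) in the 3 comparisons, with 95% confidence intervals; filled points have an adjusted p under 0.05. Ccnd1, Ccnd2, Cdkn1b and Cdkn2b (which the filter on low counts let in through the infarcted groups) are called in both infarcted groups against sham, Cdkn1c in MI + IgG only, and none between the infarcted groups.

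Ccnd2 (Entrez gene 12444, chr6:127125709-127151048, minus strand, mm10), which encodes cyclin D2, had the highest RPKM of the 3 D-type cyclins in infarcted hearts. It had 188.9, 180.3 and 178.3 CPM in sham, 243.5, 332.6, 332.5, 343 and 348.2 in MI + IgG, and 277.8, 318.6, 292, 313.3 and 333.3 in MI + FG-3149. Every infarcted library lay above every sham library, and MI + IgG replicate 1 was the lowest of the infarcted ones. Ccnd2 rose 1.75-fold in MI + IgG (log2 0.81 ± 0.10 SE, edgeR adjusted p = 1.5e-05) and 1.68-fold in MI + FG-3149 (0.75 ± 0.10, adjusted p = 5.54e-05). The difference between the infarcted groups was -0.06, with a 95% interval of -0.23 to 0.11 (adjusted p = 0.804).

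Ccnd1 (12443, chr7:144929931-144939925, minus strand), which encodes cyclin D1, had 94.6, 79.0 and 96.7 CPM in sham, 104.3, 133.6, 118.7, 137.2 and 135.6 in MI + IgG, and 112.6, 119.2, 128.4, 113.7 and 137.9 in MI + FG-3149. The sham libraries again lay below all others. Ccnd1 rose 1.4-fold (log2 0.48 ± 0.10, edgeR adjusted p = 0.00103) and 1.36-fold (0.44 ± 0.10, adjusted p = 0.00279). From MI + IgG to MI + FG-3149 the interval ran from -0.21 to 0.13.

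Ccnd3 (12445, chr17:47505051-47599688, plus strand), which encodes cyclin D3, did not pass the test in any comparison. It had 61.2, 59.7 and 60.6 CPM in sham, 60.2 to 67.7 in MI + IgG and 61.9 to 67.0 in MI + FG-3149. Its MI + FG-3149 libraries lay just above sham without overlap, a property that 32.2% of all genes had in that comparison in either direction. The log2 differences from sham were 0.08 (95% interval -0.03 to 0.20) and 0.08 (-0.04 to 0.19).

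Because the D-type cyclins share their partners, their proportions were also read. Ccnd2 made up 36.8 ± 1.26% of the summed D-type cyclin RPKM in sham, 45.7 ± 2.99% in MI + IgG and 45.2 ± 1.69% in MI + FG-3149. Ccnd3 made up 35.6 ± 0.933%, 26.9 ± 3.43% and 27.4 ± 1.38%, and Ccnd1 stayed near 27% in all groups, at 27.6 ± 2.03%, 27.4 ± 1.00% and 27.4 ± 1.33%. The shares are descriptions with no test. The summed level was 85.7 ± 4.35, 122 ± 10.5 and 116 ± 5.99 RPKM.

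**Figure D3:**
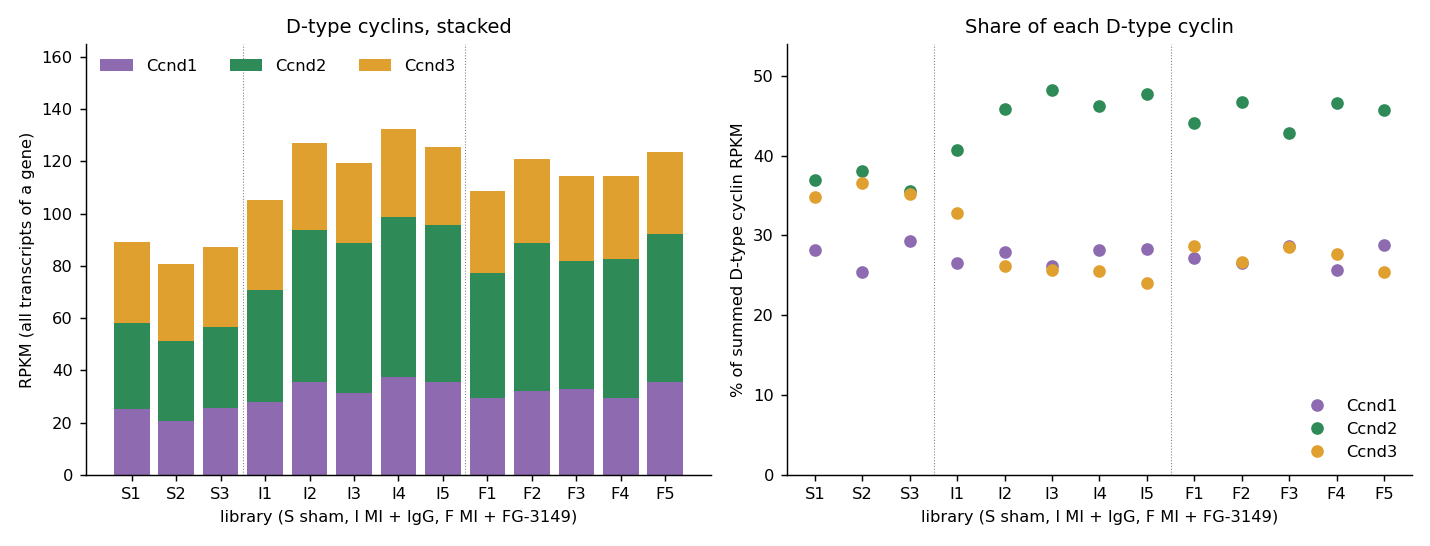
Left, RPKM of the D-type cyclins stacked by library; right, percent of their sum taken by each, with sham (S), MI + IgG (I) and MI + FG-3149 (F) libraries on the x axes. Ccnd2 takes 35.5 to 38.0% in sham and 40.7 to 48.2% in the infarcted groups.

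Cdk4 and Cdk6, the kinases that D-type cyclins activate, did not pass the test in any comparison. Cdk4 (12567, chr10:127063603-127067282, plus strand) had 45.1, 55.2 and 52.1 CPM in sham, 50.7 to 57.9 in MI + IgG and 51.7 to 53.8 in MI + FG-3149. The groups overlapped, and the log2 differences from sham were 0.11 (95% interval -0.03 to 0.25) and 0.05 (-0.09 to 0.19). Cdk6 (12571, chr5:3344312-3522225, plus strand) had 2.90 to 3.42, 2.38 to 4.28 and 1.91 to 4.43 CPM, and its intervals against sham were wide, at -0.48 to 0.50 and -0.52 to 0.49.

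Promoter windows of RefSeq (GRCm38.p6, from 250 bases before to 50 after a start) were matched for 7 of the 10 genes. Ccnd1, Ccnd2 and Cdkn1c had no matched window and were not searched. They were read for CACGTG, the E-box that MYC and clock factors bind, for E2F letters and for AP-1 letters, on both strands. The E2F letters were TTCCCGC and its variants, of which TTGGCGC is the next, TTCGCGC comes after it and TTGCCGC is the last. The AP-1 letters were TGACTCA and its reverse complement, which reads TGAGTCA. The letters CACGTG are their own reverse complement, and the E2F letters do not overlap it. Of 32851 windows of this length, 7.15% held CACGTG, 9.57% held E2F letters and 5.2% held AP-1 letters. The Cdk4 window held CACGTG at -172, -118, -98 and -11, and 8 of all windows (0.0244%) held at least 4. Cdk6 held 1 at -220. Cdkn2c held CACGTG at +35 of 1 start and the E2F letters at -25 of its other start. No AP-1 letters were found in the 7 genes' windows. The 250 bases before the start are shown for the windows with a match there, 5′ to 3′ on the gene's strand, with matches in capitals (chr10:127063285-127063534, plus; chr5:3343643-3343892, plus; chr4:109666757-109667006, minus).
Cdk4: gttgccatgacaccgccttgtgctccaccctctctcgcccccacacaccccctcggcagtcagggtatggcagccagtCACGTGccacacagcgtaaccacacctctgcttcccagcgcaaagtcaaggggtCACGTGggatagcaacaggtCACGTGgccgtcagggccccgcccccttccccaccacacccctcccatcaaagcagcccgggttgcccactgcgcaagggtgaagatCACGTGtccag
Cdk6: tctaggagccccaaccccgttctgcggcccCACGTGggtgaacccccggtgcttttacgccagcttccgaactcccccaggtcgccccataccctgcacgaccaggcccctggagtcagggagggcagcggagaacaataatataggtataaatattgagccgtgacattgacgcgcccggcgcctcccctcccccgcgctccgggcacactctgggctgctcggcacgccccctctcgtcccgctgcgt
Cdkn2c: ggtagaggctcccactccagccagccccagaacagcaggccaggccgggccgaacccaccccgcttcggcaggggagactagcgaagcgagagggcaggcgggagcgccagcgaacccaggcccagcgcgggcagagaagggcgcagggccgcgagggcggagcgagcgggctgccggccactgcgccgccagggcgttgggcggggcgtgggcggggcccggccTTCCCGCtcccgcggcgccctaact
A match describes letters only. Side by side with them, Myc, a factor that binds CACGTG, had 1.66 to 2.10 CPM in sham, 4.60 to 5.86 in MI + IgG and 3.50 to 6.33 in MI + FG-3149. Myc rose by log2 1.49 ± 0.20 (edgeR adjusted p = 2.68e-05) and 1.32 ± 0.21 (adjusted p = 0.000187). Cdk4 and Cdk6 were not called, and whether MYC acts on them was not tested.

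Cdkn1a (12575, chr17:29090986-29100722, plus strand) encodes p21, a CIP/KIP inhibitor that p53 induces. It had 20.4, 27.1 and 27.2 CPM in sham, 36.7, 36.4, 21.8, 20.7 and 25.1 in MI + IgG, and 30.7, 28.0, 22.2, 17.9 and 14.8 in MI + FG-3149. The MI + FG-3149 libraries reached below and above the sham range, and the MI + IgG libraries lay within it or above it. No difference passed the test: log2 0.17 (95% interval -0.42 to 0.77, edgeR adjusted p = 0.66), -0.13 (-0.74 to 0.47, adjusted p = 0.754) and, between the infarcted groups, -0.31 (-0.82 to 0.21, adjusted p = 0.626).

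The libraries with high and low Cdkn1a within the infarcted groups also differed in Arntl, a core gene of the circadian clock. Arntl was at 37.4, 31.9 and 31.7 CPM in sham. It was at 15.8 and 15.3 CPM in MI + IgG replicates 1 and 2 and at 4.82, 3.12 and 2.46 in replicates 3, 4 and 5. MI + FG-3149 replicates 1 to 3 had 13.9, 15 and 18.5 CPM of Arntl, and replicates 4 and 5 had 2.98 and 2.77. So the infarcted libraries with the lowest Arntl had 14.8 to 25.1 CPM of Cdkn1a and the others 22.2 to 36.7. After these values had been seen, the 5 libraries with the lowest Arntl were left out, which left 2 MI + IgG and 3 MI + FG-3149 libraries. Cdkn1a then passed the test against sham in MI + IgG (log2 0.55 ± 0.14, adjusted p = 0.0137) but not in MI + FG-3149 (0.12 ± 0.13, adjusted p = 0.559), with 18.9% and 21.3% of all genes called. Between the infarcted groups kept, 0.32% of all genes and no member were called. Those libraries were picked by a measured gene, and within each infarcted group they had lower Cdkn1a than the libraries kept. Sham did not follow this, with the highest Arntl and 20.4 to 27.2 CPM of Cdkn1a. Summed red cell markers (3 genes) split the infarcted libraries in the same way. They were at 401.1 to 640 CPM in the infarcted libraries kept, 136.5 to 220.5 in those left out and 225.1 to 335.5 in sham. The choice kept the MI + IgG libraries with the highest Cdkn1a, so that call is a description of the libraries kept and not a test of infarction. The hour of sampling is not in the labels, and neither its part nor that of red cell content was tested.

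**Figure D4:**
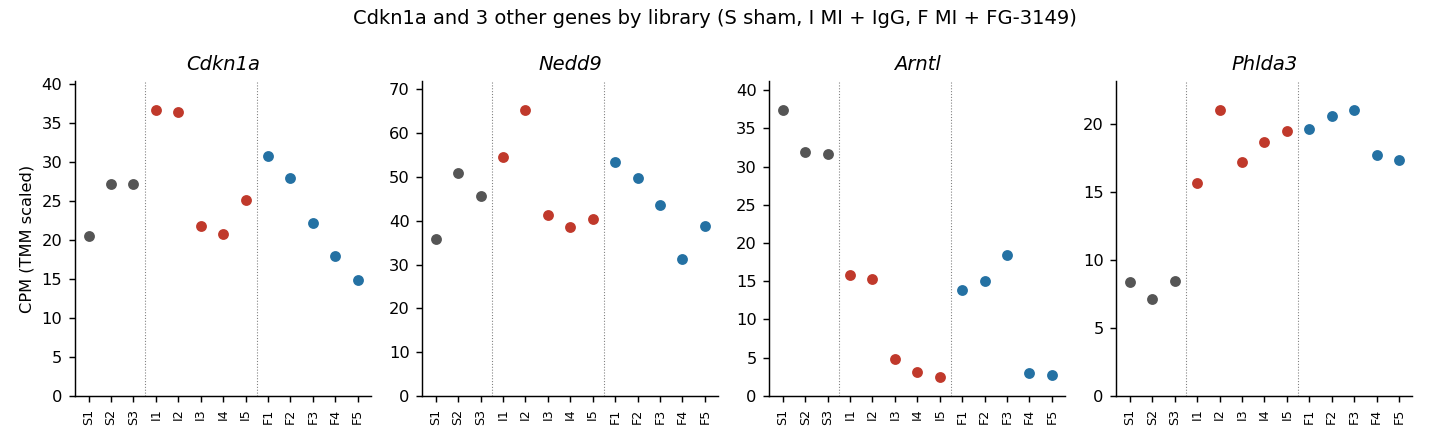
CPM (y axes) of Cdkn1a, its nearest profile Nedd9, the clock gene Arntl and the p53 target Phlda3 in each library (x axes; S sham, I MI + IgG, F MI + FG-3149). Arntl is at 2.46 to 4.82 CPM in I3 to I5, F4 and F5 and at 13.9 or above in all other libraries.

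Cdkn1b (12576, chr6:134920401-134925525, plus strand) encodes p27, the CIP/KIP inhibitor typical of resting cells. It had 30.5, 27.0 and 26.8 CPM in sham, 24.8, 23.1, 23.5, 25.8 and 21.4 in MI + IgG, and 26.1, 22, 23.4, 20.7 and 22.9 in MI + FG-3149. All infarcted libraries lay below all sham libraries. Cdkn1b fell by 0.24 ± 0.08 on the log2 scale in MI + IgG (edgeR adjusted p = 0.0295) and by 0.29 ± 0.08 in MI + FG-3149 (adjusted p = 0.0151). The difference depended on the exons counted. In counts of the 3′ exon the differences were -0.63 (adjusted p = 0.000333) and -0.73 (adjusted p = 0.000153), with 28.9% and 25.2% of all genes called, and in counts outside it they were 0.00 (adjusted p = 0.979) and -0.02 (adjusted p = 0.899), with 27.6% and 28.5% called. The 3′ exon held 43.48 to 56.25% of the gene's exon counts in sham, 35.09 to 37.12% in MI + IgG and 30.12 to 36.93% in MI + FG-3149. The split by exon was chosen after the exon values had been seen. The call in MI + FG-3149 was also lost without sham replicate 1 (log2 -0.23, adjusted p = 0.1). In MI + IgG it was lost without sham replicate 1 (adjusted p = 0.168) and without MI + IgG replicate 2 (0.0562), 3 (0.0516) or 5 (0.0642).

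Cdkn1c (12577, chr7:143458339-143461050, minus strand) encodes p57, an imprinted CIP/KIP inhibitor. It had 16.9, 19.2 and 16.7 CPM in sham, 11.6, 12.7, 15.1, 13.3 and 14.9 in MI + IgG, and 13.9, 13.4, 20.2, 20.8 and 16.8 in MI + FG-3149. All MI + IgG libraries lay below sham, while MI + FG-3149 libraries lay on both sides of it. Cdkn1c fell by 0.38 ± 0.13 on the log2 scale in MI + IgG (edgeR adjusted p = 0.0356). In MI + FG-3149 the difference from sham was -0.05 (95% interval -0.34 to 0.23, adjusted p = 0.797). The MI + FG-3149 libraries differed from MI + IgG by 0.33 (0.08 to 0.58), with an unadjusted p of 0.0126 and an adjusted p of 0.216. The call in MI + IgG was lost without sham replicate 1 (adjusted p = 0.0674), 2 (0.16) or 3 (0.0611) and without MI + IgG replicate 1 (0.0654), 2 (0.0715) or 4 (0.064).

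The Cdkn1c values also depended on the exons counted. In counts of the 3′ exon the differences from sham were -0.54 (edgeR adjusted p = 0.00463) in MI + IgG and -0.43 (adjusted p = 0.0281) in MI + FG-3149, and the infarcted groups differed by 0.11 (adjusted p = 0.816), with 0.654% of all genes called. In counts outside it they were -0.14 (adjusted p = 0.624) and 0.41 (adjusted p = 0.101), and the infarcted groups differed by 0.56 (adjusted p = 0.0418), where 5.15% of all genes were called. The 3′ exon held 58.72 to 69.32% of exon counts in sham, 45.16 to 62.4% in MI + IgG and 41.92 to 49.11% in MI + FG-3149. Ccnd1 and Ccnd2 were called against sham in both sets of counts, at 0.52 and 0.86 (3′ exon) and 0.54 and 0.91 (outside it) in MI + IgG.

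**Figure D5:**
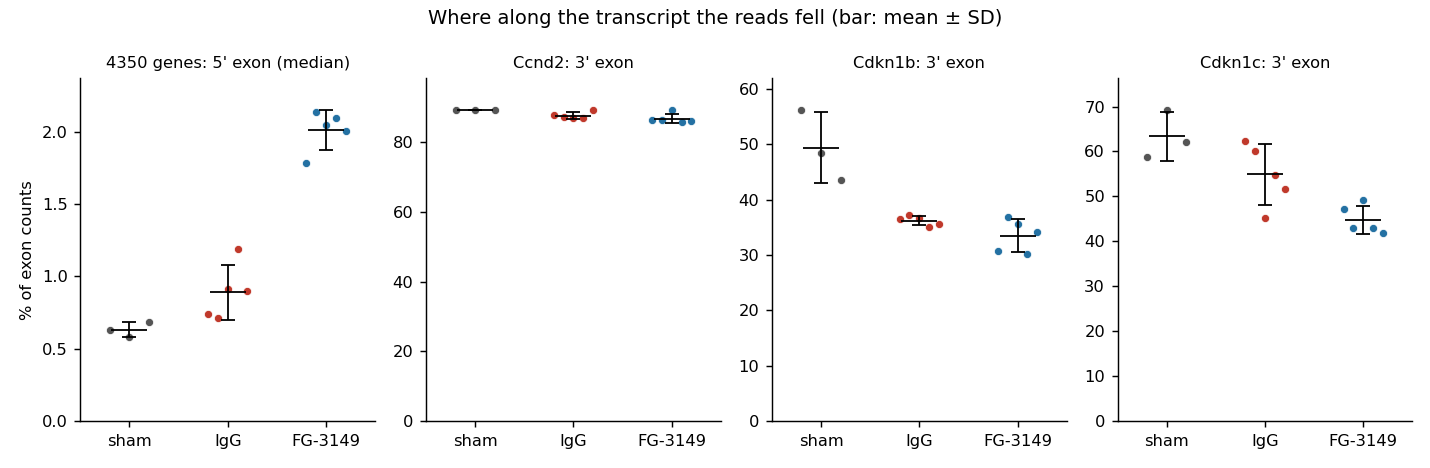
Percent of exon counts (y axes) in the 5′ exon as the median of 4350 genes, and in the 3′ exon of Ccnd2, Cdkn1b and Cdkn1c, by group (x axes); points are libraries and bars the mean ± SD. The 5′ share does not overlap between the 3 groups, and the 3′ shares of Cdkn1b and Cdkn1c are lower in MI + FG-3149 than in sham.

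Cdkn2b (12579, chr4:89306289-89311032, minus strand) encodes p15, an INK4 inhibitor that TGF-beta induces. It was scarce, with 5, 4 and 2 estimated counts in sham, 8, 36, 22, 18 and 16 in MI + IgG, and 19, 24, 17, 10 and 14 in MI + FG-3149. As CPM these were 0.166 to 0.397, 0.581 to 2.03 and 0.930 to 1.83, so all infarcted libraries lay above sham and MI + IgG replicate 1 was closest to it. The gene passed the filter on low counts only through the infarcted groups, where it is high, so its test was partly set by the filter. The fitted ratio to sham was 4.37-fold (log2 2.13 ± 0.46, edgeR adjusted p = 0.00158) and 4.97-fold (2.31 ± 0.46, adjusted p = 0.00118). Between the infarcted groups the interval was -0.43 to 0.80. The sham counts are few, and the intervals against sham, 1.17 to 3.09 and 1.34 to 3.28, are wide.

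Cdkn2c (12580, chr4:109660876-109665372, minus strand) encodes p18 and did not pass the test in any comparison. It had 7.72 to 8.87 CPM in sham, 7.49 to 10.2 in MI + IgG and 7.07 to 8.89 in MI + FG-3149, with overlapping groups. The intervals of its log2 differences from sham were -0.18 to 0.34 and -0.31 to 0.23. Of the other INK4 genes, Cdkn2d, which encodes p19, rose by log2 0.43 ± 0.10 (edgeR adjusted p = 0.0033) and 0.36 ± 0.10 (adjusted p = 0.0135), and Cdkn2a was too low to test.

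Other genes of the pathway around the 10 were also read. Of 9 tested E-type cyclin, CDK2 and CDK-activating kinase genes, none rose and 1 fell in each infarcted group: Ccnh, the cyclin of the CDK-activating kinase (log2 -0.53 and -0.44). Of 15 RB and E2F genes, 2 rose and 1 fell in MI + IgG, and 1 rose and 1 fell in MI + FG-3149. Of all genes, 17.8% were higher and 15.9% lower in MI + IgG, and 15.6% and 13.9% in MI + FG-3149. The counts of both lists were not above those shares. E2f1, an activating E2F, rose by 1.11 ± 0.23 (edgeR adjusted p = 0.00106) and 1.06 ± 0.23 (adjusted p = 0.00247), from 1.69 to 2.38 CPM in sham. Rb1 fell by 0.33 ± 0.08 in MI + IgG (adjusted p = 0.00246) and was at -0.19 in MI + FG-3149 (adjusted p = 0.0622).

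Of 15 genes for the turnover of G1 cyclins and inhibitors, 3 rose and 5 fell in each infarcted group, beside 17.8% of all genes higher and 15.9% lower in MI + IgG and 15.6% and 13.9% in MI + FG-3149. Those that rose included Cks2 (1.76 and 1.51) and Cks1b (0.77 and 0.74), small CDK-binding proteins. Cks2 (0.636 to 1.08 CPM in sham) and Dtl of this list passed the filter on low counts only through the infarcted groups. They are no support for these counts. Those that fell included Fbxw7 (-0.49 and -0.38), which targets cyclin E, and Skp1a (-0.25 and -0.24), a core subunit of the same ligases.

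Downstream of the G1 kinases, of 20 E2F targets of replication, 9 rose and 1 fell in MI + IgG, and 9 rose and 2 fell in MI + FG-3149, beside 17.8% and 15.9% of all genes in the first and 15.6% and 13.9% in the second. Median log2 differences were 0.54 and 0.49, with 0.00 over all genes. Mcm5, a helicase subunit, rose by 1.02 ± 0.19 (edgeR adjusted p = 0.00063) and 0.98 ± 0.20 (adjusted p = 0.00142). Of 20 genes of S, G2 and M phase, 17 rose in MI + IgG and 9 in MI + FG-3149, with none lower and medians of 1.20 and 0.76. In sham, Bub1 (0.610 to 0.829 CPM), Ccnb1 (0.497 to 0.954), Plk1 (0.318 to 1.08) and Aurkb (0.746 to 0.948) were scarce. These genes passed the filter on low counts only through the infarcted groups, where they are high, and are no support for these counts. Cdc6 and Gins2 of the E2F targets also passed only through those groups. The median between the infarcted groups was -0.36, and none of the 20 was called there. Top2a rose by 1.23 ± 0.18 (adjusted p = 5.21e-05) and 0.89 ± 0.18 (adjusted p = 0.00163). Of 20 p53 targets, 6 rose and 2 fell in MI + IgG, and 5 rose and 1 fell in MI + FG-3149, beside those same shares of all genes called. Phlda3 rose by 1.21 and 1.27, while Cdkn1a, a target of the same factor, was not called.

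Upstream, of 20 transcription factors known to act on these genes, 6 rose and 1 fell in MI + IgG, and 7 rose and 1 fell in MI + FG-3149. Cebpd, a stress-induced factor, rose by 1.38 ± 0.19 (edgeR adjusted p = 3.9e-05) and 1.71 ± 0.19 (adjusted p = 1.17e-05), and Stat3, which cytokines activate, by 0.54 ± 0.06 (adjusted p = 2.61e-06) and 0.39 ± 0.06 (adjusted p = 0.000107). Of 14 clock genes tested, 5 rose and 3 fell in MI + IgG, and 3 rose and 2 fell in MI + FG-3149. Of 18 glucocorticoid and FoxO responsive genes, 9 rose and 2 fell, and 6 rose and 2 fell. Of 15 immediate early genes tested, 4 rose in MI + IgG and 5 in MI + FG-3149, and none fell. Egr2 and Egr3 of this list passed the filter on low counts only through the infarcted groups and are no support for its counts. These counts stand beside 17.8% of all genes higher and 15.9% lower in MI + IgG and 15.6% and 13.9% in MI + FG-3149. None of these was called between the infarcted groups.

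The genes with profiles nearest to a member were found by root mean square distance of centred log2 CPM over the 13 libraries, as a description. Nearest to Ccnd2 were Ehd4 (0.064), Hn1 (0.080) and Pam (0.084). Nearest to Cdkn1c were Ndufc1 (0.13), Rbpms2 (0.14) and Oplah (0.14), and nearest to Cdkn1a were Nedd9 (0.18), Stx11 (0.18) and Egfr (0.20).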

How the data were processed

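RNA from non-ischaemic left ventricle (500 ng per library, stranded mRNA kit, 75-base single reads, 1 flow cell, per the labels' protocols) was sequenced in 13 libraries, and the labels name the build mm10. The aligner and counter are not given in the sources used here, nor is the strand setting. The deposited estimated counts per gene and exon are the authors' own, and 79.4% of gene values above 0 (exon values not included) were whole to within 0.01. The authors also deposited RPKM per transcript, which was summed over a gene's transcripts to compare levels. The deposited transcript entries of the count table hold each transcript's share of its gene as a fraction, and these were not tested. Here, 379 entries with a repeated symbol were left out, counts were rounded, and genes were filtered with filterByExpr, which left 13434. edgeR 4.0.16 (R 4.3.3; TMM factors, robust quasi-likelihood fit of all 13 libraries, no covariate) gave log2 fold changes, standard errors and 95% intervals, with Benjamini-Hochberg adjustment over all genes tested and a threshold of 0.05. CPM used TMM factors. Alternatives, 26 in all, used DESeq2 1.42.0, limma 3.58.1, other filters and scalings, a replicate block, exon subsets and left-out libraries. All 10 members are described, with up to 4 called genes of smallest p or a bearing role from each other list, and the 3 nearest profiles for chosen members. The fit was tested on simulated data. Members and gene lists were chosen with earlier results of these data known. Intervals cover the spread between these libraries.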

Additional observations from a re-analysis of the deposited data

Results flagged for a closer look

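Ccnd2 in MI + IgG replicate 1, at 243.5 CPM, lay apart from the other libraries of its group, which were at 332.5 to 348.2 CPM. Of the 20 groups of 5 libraries looked at (10 genes in 2 infarcted groups), this was the 1 set apart, and chance sets apart about 1 in 20 groups.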

How the results depend on the processing

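The calls of Ccnd1 and Ccnd2 against sham held in every alternative. Cdkn2b was called in each alternative that tested it (not outside the 3′ exon), also with no filter on low counts, but with the filter it was tested only through the groups where it is high. Over all members and comparisons, 577 recomputed log2 differences kept their direction and side of the threshold, and 47 changed sign. In all, 21 calls were lost, 1 of them with a change of sign, and 3 were gained. A missed threshold does not show equal levels, and low counts limit Cdkn2b and Cdk6. The cause of the changes below was not tested.

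With all 13 libraries, 2393 genes were higher and 2136 lower in MI + IgG than in sham, 2098 and 1861 in MI + FG-3149 than in sham, and 123 and 21 in MI + FG-3149 than in MI + IgG. That last pair was 220 and 58 by DESeq2 and 76 and 7 with only the 2 groups in the fit. Its lower count was 122 and 106 by limma on log2(RPKM + 1) and log2(RPKM + 0.1) of each gene's most abundant transcript, where the members called lower in MI + IgG against sham went from 2 to 0. The reads of Cdkn1c were split unevenly between 2 transcripts there, so its value on that scale is not that of the gene. The sign of Ccnd3 between the infarcted groups turned, to 0.0010 by RLE factors, 0.00045 by DESeq2, 0.0011 and 0.0012 on the RPKM scales and 0.00097 in the fit of 2 groups. By limma voom Cdk6 in MI + IgG against sham was -0.018.

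With all libraries, 2 members were called lower in MI + IgG and 1 in MI + FG-3149 against sham. Leaving out 1 library at a time gave 0 or 1 in each, so no such fit kept both calls in MI + IgG. In MI + FG-3149 the count was 0 without sham replicate 1. Cdkn1b in MI + IgG lost its call without sham replicate 1 and MI + IgG replicates 2, 3 or 5, and Cdkn1c lost it without any sham library or MI + IgG replicates 1, 2 or 4. All genes called lower in MI + FG-3149 against sham ranged from 1166 (without sham replicate 1) to 1786. Between the infarcted groups the counts ranged from 62 to 175 higher and from 6 to 96 lower, lowest without MI + IgG replicate 2 and highest without MI + IgG replicate 1. Log2 differences that changed sign ranged from -0.11 to 0.092 for Cdk6 in MI + IgG against sham. In MI + FG-3149 against sham they ranged from -0.028 to 0.12 for Cdk4, -0.18 to 0.11 for Cdk6, -0.14 to 0.028 for Cdkn1c and -0.10 to 0.0074 for Cdkn2c. For MI + FG-3149 against MI + IgG they ranged from -0.026 to 0.021 for Ccnd3 and -0.19 to 0.10 for Cdk6.

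The labels give same-numbered replicates nothing in common but the number. Their deviations from the group means correlated at -0.04 to 0.18. Between the infarcted groups, replicates 1 and 2 correlated best with their own number (0.18 and 0.13), and replicates 3, 4 and 5 did not. Against sham no replicate did. With a replicate block, 1 member was lower in MI + IgG than in sham, and 46 of all genes were lower in MI + FG-3149 than in MI + IgG. Cdk6 and Cdkn1a in MI + FG-3149 against sham were 0.077 and 0.047 under the block.

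The next alternatives were chosen after seeing the data. In counts of the 3′ exon, 2 members were lower in MI + FG-3149 than in sham, with Cdk6 at 0.065 and Cdkn2c at 0.040. Between the infarcted groups 67 genes were higher, with Ccnd3 at 0.0022 and Cdk6 at 0.052. Outside the 3′ exon, 1559 genes were higher in MI + IgG than in sham, no member (0) was lower in either infarcted group, and Cdkn1b was at 0.0050 in MI + IgG. In MI + FG-3149 against sham Cdk4 was at -0.052, Cdkn1a at 0.012, Cdkn1c at 0.41 and Cdkn2c at 0.014. Between the infarcted groups 1 member and 509 genes were higher and 82 lower, with Ccnd2 at 0.0013 and Ccnd3 at 0.052.

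Leaving out the 5 libraries with the lowest Arntl, which were chosen by that measured value, gave 1511 genes higher and 1025 lower in MI + IgG than in sham, and 30 higher and 13 lower in MI + FG-3149 than in MI + IgG. Members called in MI + IgG against sham were then 4 higher, with Cdkn1a (0.55, edgeR adjusted p = 0.0137) and Cdkn2b among them, and 1 lower, beside 18.9% of all genes. In MI + FG-3149 against sham 0 were lower, with 21.3% of all genes called. The MI + IgG libraries kept had the highest Cdkn1a of all (36.7 and 36.4 CPM), so its call only describes them. Cdkn2b passed the filter on low counts only through the infarcted groups. Cdkn1b lost both calls (-0.23 and -0.24, adjusted p = 0.139 and 0.0887). Cdkn2c in MI + IgG was at -0.14, and in MI + FG-3149 Cdk6 was at 0.080 and Cdkn1a at 0.12. In MI + FG-3149 against MI + IgG Ccnd1 was at 0.011, Ccnd2 at 0.039 and Cdkn2c at 0.13.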
